A study of Mus musculus with 12 samples.

Results

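Paired receptors are sets of closely related surface proteins in which some members restrain the cell and others activate it. The members described here are 10 mouse genes of this kind from 4 families: the Pir and gp49 families (Pirb, Pira2, Lilrb4a, Lilr4b), the Cd300 family (Cd300a, Cd300lb, Cd300ld, Cd300lf), the Siglec family (Siglece) and the Sirp family (Sirpa). They were chosen by gene name. The members and the gene lists below were drawn up with earlier results of these data known, so the shares called in them are descriptions. The count table listed 29737 genes, and 9 of the 10 names had a row of their own. Lilr4b had none. RNA-seq was carried out on neutrophils of wild-type (WT) mice, cultured for 24 h in RPMI medium with 10% fetal bovine serum. The study's methods describe the animals as female C57BL/6 mice, 4 to 6 weeks old. The cells came from bone marrow and were described as Ly6G+ cells purified on magnetic beads. The study's methods name a neutrophil separating medium and an enrichment kit, and no Ly6G selection. The cultures received PBS as control, taurocholic acid (TCA) at 200 µM, glycocholic acid (GCA) at 200 µM, or tauro-β-muricholic acid (Tβ-MCA), for which the labels give 10 µM and the study's methods 200 µM. These are bile acids joined to taurine or glycine. Each group held 3 samples, numbered 3, 5 and 6 with PBS and 3, 4 and 5 with each acid. The sources do not say whether these were separate animals or cultures or whether animals were pooled, so that p-values measure the spread between samples, which may be technical. Each comparison with PBS asked which of the receptors differed in transcript level after a bile acid.

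An inhibitory receptor of this kind carries a tyrosine-based motif (ITIM) in its cytoplasmic tail. Once phosphorylated by Src-family kinases, the motif recruits the phosphatases SHP-1 (gene Ptpn6) and SHP-2 (Ptpn11), which dampen signals from neighbouring receptors. The activating partner has a short tail and signals through an adaptor with an activating motif (ITAM), the Fc receptor γ chain (Fcer1g) or DAP12 (Tyrobp), and then through the kinase Syk. On neutrophils, such receptors set thresholds for adhesion, phagocytosis and release of reactive oxygen, and Sirpa binds Cd47, the signal by which healthy cells avoid being engulfed.

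Total counts ran from 32757389 to 41375925 per sample, and 16761 genes passed the filter on low counts. All 9 member rows passed it, with 1829 to 61450 reads each, a counting error of 2.34% at the lowest and 0.403% at the highest. The neutrophil markers were present in every sample. S100a9, which encodes a calcium-binding protein abundant in neutrophil cytosol, ranged from 17450 to 25500 CPM, that is, counts scaled to the size of the library. Markers of other cells were low but not absent: the summed CPM of 12 monocyte and macrophage markers was 634, 767 and 772 with PBS, against 38010 to 58590 for 10 neutrophil markers over all samples. The summed eosinophil markers were 138 to 241 CPM with PBS. Over all samples, the summed B cell markers stayed between 3.70 and 12.5 CPM, and the T and NK cell markers between 1.19 and 3.35 CPM.

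Several of these genes are near-copies of each other, which bears on what their rows measure. The Lilrb4a row spanned chr10:51480679-51496613 (GRCm38, + strand). Of its 18 exons, 9 lay in Lilr4b (1305 bases) and 9 in Lilrb4a (1377 bases). The row therefore summed both genes: Lilrb4a, an inhibitory receptor, and Lilr4b, its partner that lacks the inhibitory motif. Both lie on the + strand of chromosome 10. The first 60 coding bases of the pair (GENCODE vM21) differ at 1 position, and the capital marks the base at which Lilr4b departs from Lilrb4a.
Lilrb4a: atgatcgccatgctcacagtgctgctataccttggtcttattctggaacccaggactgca
Lilr4b: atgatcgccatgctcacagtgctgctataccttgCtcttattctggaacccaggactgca

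Pirb, the inhibitory member of the paired immunoglobulin-like receptors, spans chr7:3711409-3720391 (- strand), and Pira2, an activating member, chr7:3836812-3845051 (- strand). Their signal peptide regions are close to identical, as are those of their neighbours Gm14548 and Gm15448 in the same cluster. The first 60 coding bases are shown because they illustrate how little sequence separates the rows, and capitals mark bases that differ from Pirb.
Pirb: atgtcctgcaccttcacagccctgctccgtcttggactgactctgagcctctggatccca
Pira2: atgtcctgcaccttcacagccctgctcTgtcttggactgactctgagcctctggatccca
Gm14548: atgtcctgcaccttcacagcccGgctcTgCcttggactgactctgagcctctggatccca
Gm15448: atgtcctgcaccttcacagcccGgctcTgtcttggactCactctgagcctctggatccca

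Over the whole transcript, 86.5% of the 100-base stretches of Pira2 also occurred in another gene's transcript, and 74% occurred in Gm15922, an annotated polymorphic pseudogene. For Pirb the share was 24.6%. Values of Pira2 are thus uncertain as to which copy they came from, and those of Pirb less so. The share was 14.3% for Lilrb4a, 0.902% for Cd300a, 1.37% for Cd300ld and 1.96% for Cd300lf, and no stretch was shared for Cd300lb, Siglece or Sirpa. Cd300lf overlaps Rab37 and Cd300lb overlaps Gm11699 on the other strand. The library kit keeps strand, but whether counting used it is not given in the sources used here.

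Levels between genes were compared per length, as the deposited RPKM (reads scaled to the exon length of the row and to library size). That length joins all exons of a row: 5149 bases for Cd300lf, whose longest coding transcript has 1885. For Pirb it is 4471, against 3824, and for the Lilrb4a row 2682 over both genes. The order of levels therefore holds for these lengths only. In the PBS samples the Lilrb4a row, which holds Lilr4b as well, and the inhibitory receptors Cd300lf and Pirb led. The Lilrb4a row stood at 296 ± 37.5 RPKM (SD, n = 3), Cd300lf at 275 ± 25.1 and Pirb at 223 ± 6.67. The first and second of these overlapped between samples, and Pirb was below Cd300lf in every sample. Siglece, a sialic acid-binding inhibitory receptor, had 67.0 ± 1.90 RPKM and Sirpa 66.1 ± 1.75, again overlapping. Among the 9 rows, Cd300a and the activating receptors with a row of their own formed the lower end. The Pira2 level is uncertain as to copy. Its neighbour Gm14548, not a member, had 199.6 CPM over 2128 bases with PBS, against 99.8 CPM over 3462 for Pira2. Cd300lb stood at 32.0 ± 1.05, Cd300ld at 31.5 ± 6.75, Pira2 at 28.5 ± 1.38 and Cd300a at 15.4 ± 3.13 RPKM. Cd300lb, Cd300ld and Pira2 overlapped their neighbours in this order, and Cd300a lay below Pira2 in each sample. With Tβ-MCA, Sirpa (81.7 ± 4.82 RPKM) stood above Siglece (60.9 ± 3.45) without overlap. It also stood above Siglece with GCA (72.6 ± 6.40 against 67.2 ± 5.73), but there the samples overlapped. Cd300ld had a higher mean than Cd300lb with each acid, again with overlap.

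**Figure D1:**
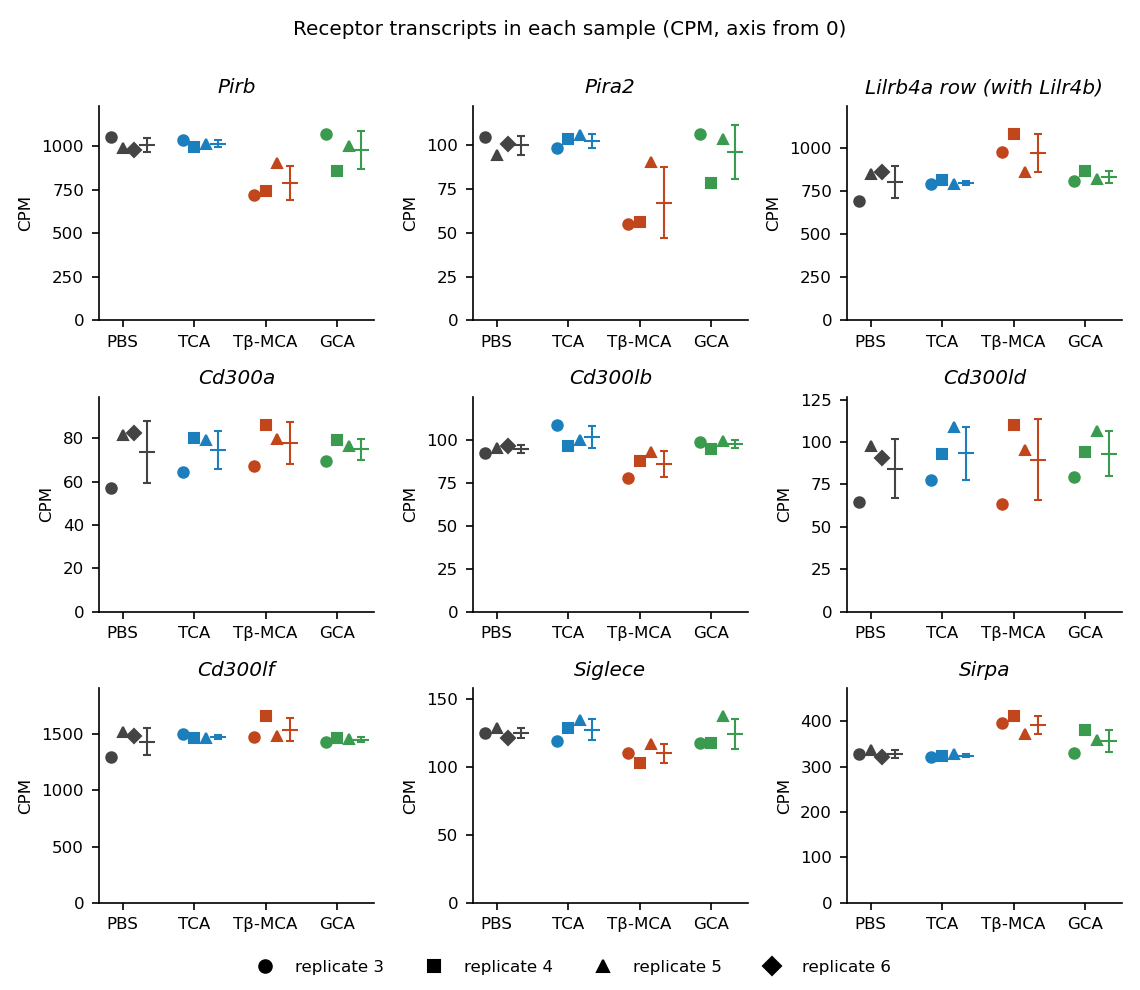
CPM of the 9 receptor rows in each of the 12 samples; symbols give the replicate number, and the bar beside each group its mean and SD (n = 3). With Tβ-MCA, Pirb (722 to 903 CPM) lies below and Sirpa (372 to 411 CPM) above every PBS sample, and Tβ-MCA replicate 5 lies nearest to PBS in both.

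With Tβ-MCA, Pirb fell to 0.784 of its PBS level and Sirpa rose 1.20-fold. These were 2 of 9 member rows called by edgeR's quasi-likelihood test at a Benjamini-Hochberg adjusted p below 0.05, against 7.62% of all genes tested. In each direction 1 member was called, against 4.44% of all genes higher and 3.18% lower. None of the 9 reached the study's thresholds of an unadjusted p below 0.05 and a fold change of at least 2, which 2.95% of all genes did. For 4 of the 9 the 3 Tβ-MCA samples did not overlap the 3 PBS samples, against 27.0% of all genes. The median log2 fold change was 0.08 over the members and 0.00 over all genes.

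Pirb binds class I major histocompatibility molecules, among other ligands. It stood at 1055, 989 and 979 CPM with PBS and at 722, 745 and 903 CPM with Tβ-MCA. All Tβ-MCA samples were below all PBS samples, and replicate 5 was the nearest to them. The log2 fold change was -0.35 (SE 0.089, 95% interval -0.54 to -0.16, adjusted p = 0.032 by edgeR).

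Sirpa had 327, 338 and 321 CPM with PBS and 395, 411 and 372 CPM with Tβ-MCA. The groups did not overlap, with the Tβ-MCA samples higher. The log2 fold change was 0.26 (SE 0.063, 95% interval 0.12 to 0.39, adjusted p = 0.029 by edgeR). The transcript of its ligand Cd47 stood at 106, 103 and 110 CPM with PBS and at 111, 116 and 108 CPM with Tβ-MCA, which overlapped (log2 fold change 0.07, adjusted p = 0.476 by edgeR).

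The Lilrb4a row gave 695, 851 and 863 CPM with PBS and 975, 1082 and 859 CPM with Tβ-MCA. PBS replicate 3 was low, and Tβ-MCA replicate 5 lay within the PBS range. The log2 fold change of 0.28 (SE 0.089, 95% interval 0.09 to 0.46) did not pass the threshold (adjusted p = 0.0696 by edgeR), although it did by DESeq2 (adjusted p = 0.0422). Over all alternatives its adjusted p ran from 0.0037 to 0.305.

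Siglece gave 126, 129 and 122 CPM with PBS and 110, 103 and 117 CPM with Tβ-MCA. All Tβ-MCA samples were lower, but the difference did not pass the threshold (log2 fold change -0.19, SE 0.075, 95% interval -0.34 to -0.03, adjusted p = 0.134 by edgeR). Cd33, another gene of the Siglec family, was not a member. It had 1036, 1268 and 1293 CPM with PBS and 1451, 1593 and 1402 CPM with Tβ-MCA (log2 fold change 0.31, adjusted p = 0.0658 by edgeR, named after its values were seen).

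Cd300lf, an inhibitory receptor for lipids such as ceramide, gave 1300, 1520 and 1481 CPM with PBS and 1476, 1659 and 1484 CPM with Tβ-MCA. The groups overlapped (log2 fold change 0.10, 95% interval -0.04 to 0.25, adjusted p = 0.382 by edgeR). Cd300a, an inhibitory receptor for phospholipids exposed on dying cells, gave 57.2, 81.4 and 82.5 CPM with PBS and 67.5, 86.2 and 79.9 CPM with Tβ-MCA. Here too the groups overlapped (log2 fold change 0.08, 95% interval -0.22 to 0.37, adjusted p = 0.777 by edgeR).

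Of the activating receptors, Pira2 had the largest log2 fold change among the members, -0.57 (SE 0.176, 95% interval -0.96 to -0.18), without passing the threshold (adjusted p = 0.0741 by edgeR). It stood at 105, 94.0 and 101 CPM with PBS and at 54.7, 56.3 and 90.5 CPM with Tβ-MCA. Tβ-MCA replicates 3 and 4 were far below PBS, and replicate 5 was just below the lowest PBS sample. Cd300lb, which couples to DAP12, gave 92.2, 95.2 and 96.2 CPM with PBS and 77.9, 87.3 and 92.8 CPM with Tβ-MCA. The third Tβ-MCA sample lay within the PBS range (log2 fold change -0.14, 95% interval -0.29 to 0.01, adjusted p = 0.246 by edgeR). Cd300ld, which pairs with the Fc receptor γ chain, gave 64.7, 97.6 and 90.8 CPM with PBS and 63.3, 110 and 95.2 CPM with Tβ-MCA, which overlapped throughout (log2 fold change 0.09, 95% interval -0.42 to 0.60, adjusted p = 0.864 by edgeR).

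**Figure D2:**
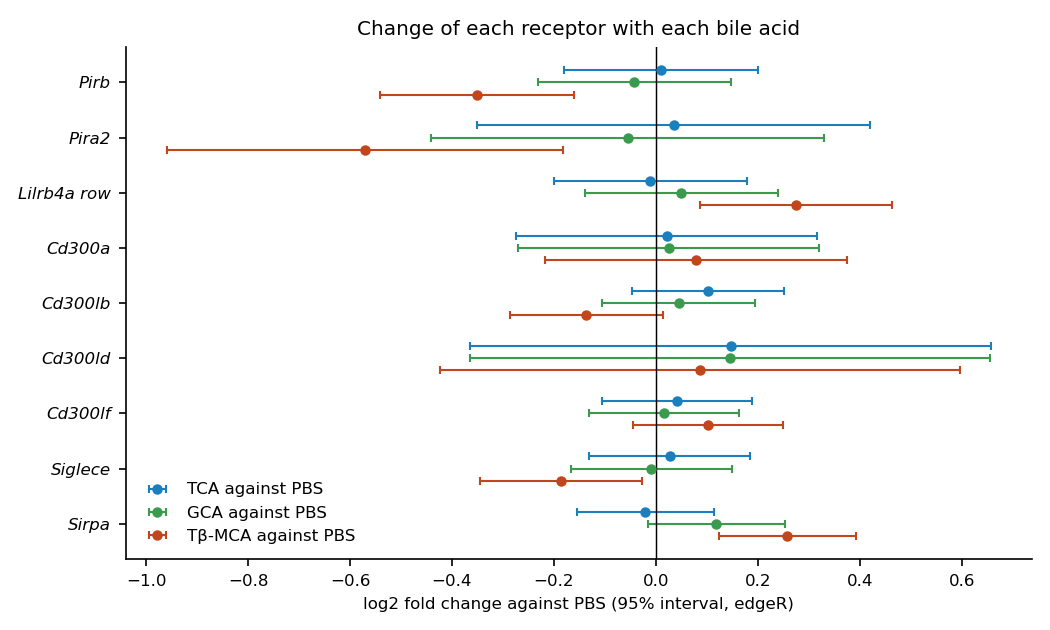
Log2 fold change of each receptor row against PBS, with 95% intervals from edgeR (3 samples per group), for TCA, GCA and Tβ-MCA. With Tβ-MCA the intervals of Pirb, Pira2 and Siglece lie below 0 and those of Sirpa and the Lilrb4a row above it, whereas every TCA and GCA interval includes 0.

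The calls depended on which libraries were present. Leaving out PBS replicate 3, 5 or 6, or Tβ-MCA replicate 3 or 4, left 0 members called by edgeR. In the same fits 168 genes of all tested were called without PBS replicate 6 and 0 without any of the other 4. The adjusted p was then 0.0624 to 0.152 for Pirb and 0.0779 to 0.143 for Sirpa, each with an unadjusted p of at most 0.0083. The direction held throughout, with log2 fold changes of -0.46 to -0.29 for Pirb and 0.22 to 0.30 for Sirpa. When the model held only the PBS and Tβ-MCA groups, 0 members were called (adjusted p = 0.0738 for Pirb and 0.0761 for Sirpa).

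Tβ-MCA replicate 5 stood apart from replicates 3 and 4. It lay nearer to PBS for Pirb, Pira2, Siglece, Sirpa, Cd300lb and the Lilrb4a row. Without it, 4 members were called, against 18.0% of all genes: Pirb (log2 fold change -0.46, adjusted p = 0.00139), Pira2 (-0.85, adjusted p = 0.000129), the Lilrb4a row (0.36, adjusted p = 0.00954) and Sirpa (0.30, adjusted p = 0.00671, all by edgeR). Siglece then had -0.23 (adjusted p = 0.0568). DESeq2 on all samples called the same 4 rows. Over all alternatives the adjusted p of Pira2 ran from 1.6e-09, without a filter on low counts, to 0.247, without Tβ-MCA replicate 4.

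Markers of other cells and of maturation varied in the same samples. The summed monocyte and macrophage markers were 352, 455 and 666 CPM in Tβ-MCA replicates 3, 4 and 5, so that replicate 5 was again nearest to PBS. All 12 of these markers had a negative log2 fold change (-2.26 to -0.18), and 1, Ly6c2, was called lower. Ccr2, the chemokine receptor of classical monocytes, stood at 2.03, 2.70 and 29.2 CPM in the 3 Tβ-MCA samples, against 37.3 to 51.2 CPM with PBS. Of 10 neutrophil markers 9 had a negative log2 fold change, 8 did not overlap PBS (27.0% of all genes) and 3 fell (3.18% of all genes were called lower): Ly6g (-0.99), which encodes the surface protein Ly6G, S100a8 (-0.30) and Camp (-1.14), which encodes a granule peptide. The eosinophil marker Siglecf and the B cell marker Cd79a were also called lower, at 4.65 CPM or less. All 5 eosinophil markers had a negative log2 fold change (-1.18 to -0.53). Their sum was 54.1 to 124 CPM with Tβ-MCA, against 138 to 241 CPM with PBS. In bulk RNA, fewer cells of a type and less RNA per cell cannot be told apart. The part of cell composition in the receptor values was not tested.

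Pirb and Pira2 belong to a cluster of neighbours on chromosome 7. All 6 rows of this cluster had lower values with Tβ-MCA, and in all 6 the groups did not overlap (27.0% of all genes). The log2 fold changes, in order along the chromosome, were -0.35 for Pirb, -0.50 for Gm15922, -0.48 for Gm15448, -0.57 for Pira2, -0.70 for Gm14548 and -0.96 for Lilra6. Pirb and Gm15448 (adjusted p = 0.0473 by edgeR) passed the threshold and the other 4 did not (adjusted p = 0.0693 to 0.112). Because the rows share sequence, they do not count as 6 separate measurements. Lilra6, which was added after its values were seen, had the lowest share of sequence in common with other genes (8.48%). It stood at 82.3, 86.4 and 94.4 CPM with PBS and at 28.3, 34.8 and 71.8 CPM with Tβ-MCA. Replicate 5 was the Tβ-MCA sample nearest to PBS in these rows, so leaving it out enlarges the differences. Without it 18.0% of all genes were called by edgeR. The log2 fold change was then -1.47 for Lilra6 (adjusted p = 0.000324) and -0.91 for Gm14548 (adjusted p = 0.00963). Gm15922, at -0.58, still did not pass (adjusted p = 0.0831).

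**Figure D3:**
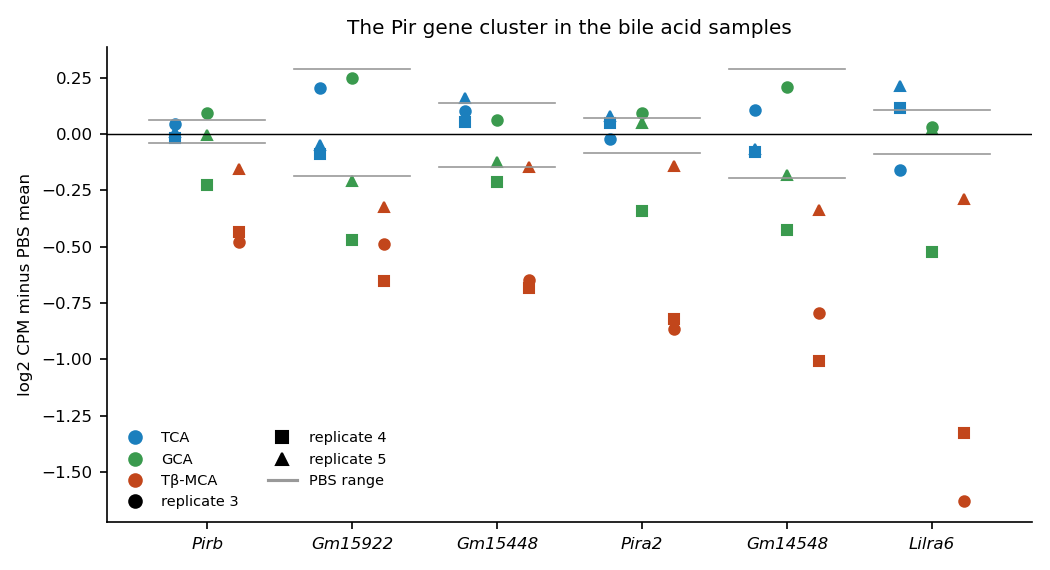
Log2 CPM of each bile acid sample minus the mean of the 3 PBS samples, for the 6 rows of the Pir cluster in chromosomal order; symbols give the replicate number and grey lines the PBS range. Tβ-MCA replicates 3 and 4 are the lowest points in every row (log2 fold change of the group -0.35 for Pirb to -0.96 for Lilra6), and GCA replicate 4 is the lowest of the TCA and GCA points in each.

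Pirb was also compared with Pira2 as the ratio of their counts. This ratio leaves out the other rows of the cluster, and the Pira2 row is uncertain as to copy. With PBS the mean was 99.8 CPM for Pira2, 199.6 for Gm14548, 87.7 for Lilra6, 47.2 for Gm15922 and 11.4 for Gm15448. The balance of inhibitory to activating transcript over the whole cluster was not tested. The ratio of Pirb to Pira2 was 10.1, 10.5 and 9.72 with PBS and 13.2, 13.2 and 9.98 with Tβ-MCA. Replicates 3 and 4 were above every PBS sample, and replicate 5 was among them. The means were 12.1 and 10.1. A two-sided exact permutation test gave p = 0.3, but 3 samples against 3 cannot go below 0.1, so that this test could not pass the threshold. With TCA the ratio was 9.59 to 10.6 and with GCA 9.72 to 10.9.

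The Pir genes also share their upstream sequence. The RefSeq promoter table (GRCm38.p6) held 8 of the members and lacked Lilrb4a and Sirpa. The 250 bases before the start were aligned with those of Pirb, and identity was taken over the aligned part. It was 97.7% over 222 bases for Pira2, 96.0% over 249 for Gm14548, 96.4% over 220 for Lilra6 and 99.5% over 187, the shortest alignment, for Gm15448. The 130 bases before the start are shown because the rows of the cluster carry nearly the same text there. Capitals mark GAGGAA, the core bound by the myeloid factor PU.1, or its reverse complement TTCCTC. The window of Pirb is chr7:3720383-3720512, that of Pira2 chr7:3845052-3845181 and that of Gm14548 chr7:3898142-3898271, all on the - strand.
Pirb: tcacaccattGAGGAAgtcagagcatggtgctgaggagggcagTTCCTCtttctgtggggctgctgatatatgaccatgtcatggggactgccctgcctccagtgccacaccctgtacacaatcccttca
Pira2: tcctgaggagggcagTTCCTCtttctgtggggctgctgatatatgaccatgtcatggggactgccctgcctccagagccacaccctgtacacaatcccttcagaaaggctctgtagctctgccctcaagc
Gm14548: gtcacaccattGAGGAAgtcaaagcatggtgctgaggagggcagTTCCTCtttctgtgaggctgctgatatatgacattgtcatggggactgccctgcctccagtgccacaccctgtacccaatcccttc

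The annotated start of Pira2 lies further downstream, so its window is shifted. Over 250 bases and both strands, the motif occurred 4 times before Gm15448 and 3 times before Pirb, Pira2, Gm14548, Lilra6 and Siglece. It occurred once before Cd300a, Cd300ld and Cd300lf. It was not found before Cd300lb or Lilr4b. Of 32851 promoters, 23.3% held it at least once. A match of 6 letters is a description of the sequence and not of binding.

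For Cd300ld and Cd300a the samples differed by replicate number more than by treatment. Replicate 3 had the lowest Cd300ld value in all 4 groups: 64.7 CPM with PBS, 77.9 with TCA, 63.3 with Tβ-MCA and 79.5 with GCA, where the other 8 samples ranged from 90.8 to 110 CPM. Cd300a gave the same order, with 57.2 to 69.7 CPM in the replicate 3 samples and 76.3 to 86.2 CPM in the others. The 2 genes were the only members in which replicate 3 was lowest in every group, which held for 8.31% of all genes. It held for Fcer1g, Tyrobp and the neighbour Cd300c2 as well, and also for the monocyte and macrophage markers Csf1r, Adgre1, C1qa and Cd68. What the replicate number stands for is not stated.

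**Figure D4:**
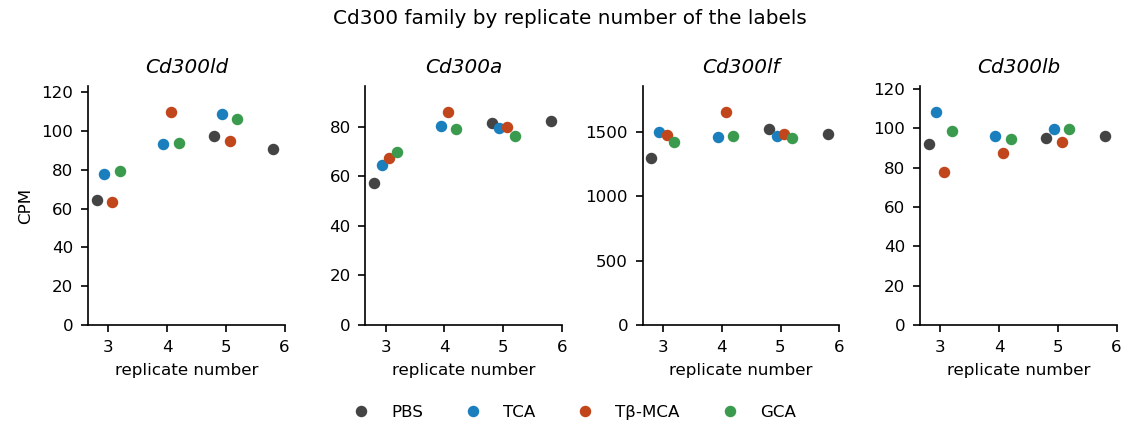
CPM of 4 Cd300 genes against the replicate number of the labels, 1 point per sample, coloured by group. The 4 replicate 3 samples hold the lowest Cd300ld values (63.3 to 79.5 CPM) and the lowest Cd300a values (57.2 to 69.7 CPM), whatever the treatment, and Cd300lf and Cd300lb do not show this order.

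With TCA, none of the receptors passed the test against PBS: 0 of 9 members and 0% of all genes were called by edgeR. At an unadjusted p below 0.05 there were 0 members and 546 genes, and DESeq2 called 0 members and 1 gene. The log2 fold changes of the members ran from -0.02 (Sirpa) to 0.15 (Cd300ld), with a median of 0.03. The samples did not overlap in 1 member, Cd300lb (9.67% of all genes), which gave 108, 96.3 and 99.7 CPM with TCA, all slightly above PBS (log2 fold change 0.10, 95% interval -0.05 to 0.25). Pirb gave 1037, 995 and 1012 CPM, within or near the PBS range, and Pira2 98.1, 103 and 106 CPM. Sirpa gave 320, 324 and 327 CPM, and the interval of its log2 fold change was -0.16 to 0.11. No member passed the study's thresholds with TCA, against 0.465% of all genes.

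With GCA, again 0 of 9 members and 0% of all genes were called by edgeR. At an unadjusted p below 0.05 there were 0 members and 591 genes, and DESeq2 called 0 of either. The samples overlapped PBS in all 9 members (no overlap in 9.55% of all genes), and none passed the study's thresholds (0.531% of all genes). The log2 fold changes ran from -0.06 (Pira2) to 0.15 (Cd300ld). GCA replicate 4 had the lowest Pirb and Pira2 values of its group: 860 CPM of Pirb, against 1072 and 1004 CPM, and 78.6 CPM of Pira2, against 106 and 103 CPM. Sirpa gave 331, 380 and 360 CPM, of which replicates 4 and 5 were above every PBS sample (log2 fold change 0.12, 95% interval -0.02 to 0.25). The Lilrb4a row gave 808, 868 and 819 CPM, and Siglece 118, 118 and 138 CPM, both overlapping PBS.

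GCA and TCA were given at the same dose and differ in the amino acid joined to cholic acid, glycine in the first and taurine in the second. Of 9 members compared between them, 0 were called by edgeR (0% of all genes; 1 member and 412 genes at an unadjusted p below 0.05, and 0 of either by DESeq2). That member was Sirpa, higher in each GCA sample than in each TCA sample. Its log2 difference was 0.14 (95% interval 0.01 to 0.27, adjusted p = 0.9998 by edgeR), and it was the only member without overlap, against 8.0% of all genes. For the other 8 the log2 differences ran from -0.09 (Pira2) to 0.06 (the Lilrb4a row). Their intervals were narrowest for Cd300lf (-0.17 to 0.12) and Cd300lb (-0.21 to 0.09), and widest for Cd300ld (-0.51 to 0.51). No member passed the study's thresholds, against 0.442% of all genes.

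TCA and Tβ-MCA share taurine and differ in the steroid, but by the labels their doses differ, so their values stand side by side without a test. The log2 fold change against the same PBS samples was 0.01 with TCA and -0.35 with Tβ-MCA for Pirb, 0.04 and -0.57 for Pira2, and -0.02 and 0.26 for Sirpa. For the Lilrb4a row it was -0.01 and 0.28, and for Siglece 0.03 and -0.19.

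Of the 3 phosphatase transcripts 2 fell with Tβ-MCA (3.18% of all genes were called lower), and of the 3 adaptor transcripts none was called. Ptpn6 stood at 1101, 1132 and 1071 CPM with PBS and at 848, 869 and 979 CPM with Tβ-MCA, without overlap (log2 fold change -0.29, SE 0.070, adjusted p = 0.0271 by edgeR). Ptpn11 gave 256, 215 and 208 CPM with PBS and 183, 166 and 192 CPM with Tβ-MCA, again all lower (-0.33, SE 0.086, adjusted p = 0.0338). Inpp5d, the lipid phosphatase SHIP-1, had overlapping values of 282, 301 and 289 CPM with PBS and 277, 294 and 287 CPM with Tβ-MCA (-0.03, 95% interval -0.15 to 0.10). With TCA and GCA the log2 fold changes of Ptpn6 were -0.10 and -0.14 and those of Ptpn11 -0.14 and -0.17, and none passed the test.

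All 3 adaptors overlapped between Tβ-MCA and PBS. Tyrobp had a log2 fold change of 0.05 (95% interval -0.15 to 0.24), Fcer1g -0.07 (-0.27 to 0.12) and Hcst, which encodes DAP10, 0.03 (-0.25 to 0.30). Of 7 kinase genes tested 2 were called lower (3.18% of all genes) and 0 higher (4.44%), and 5 did not overlap PBS (27.0%). Fgr, of the Src family, fell from 287, 290 and 288 CPM to 210, 212 and 269 CPM (-0.33, adjusted p = 0.0317 by edgeR). Syk was higher, at 724 to 788 CPM with Tβ-MCA against 666 to 682 with PBS, without passing the threshold (0.19, adjusted p = 0.0601). For Fgr, as for Pirb, replicate 5 was the nearest to PBS. The median of the 3 phosphatases was -0.29, against 0.00 for all genes. None of 10 ligand genes tested was called, including Cd47.

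**Figure D5:**
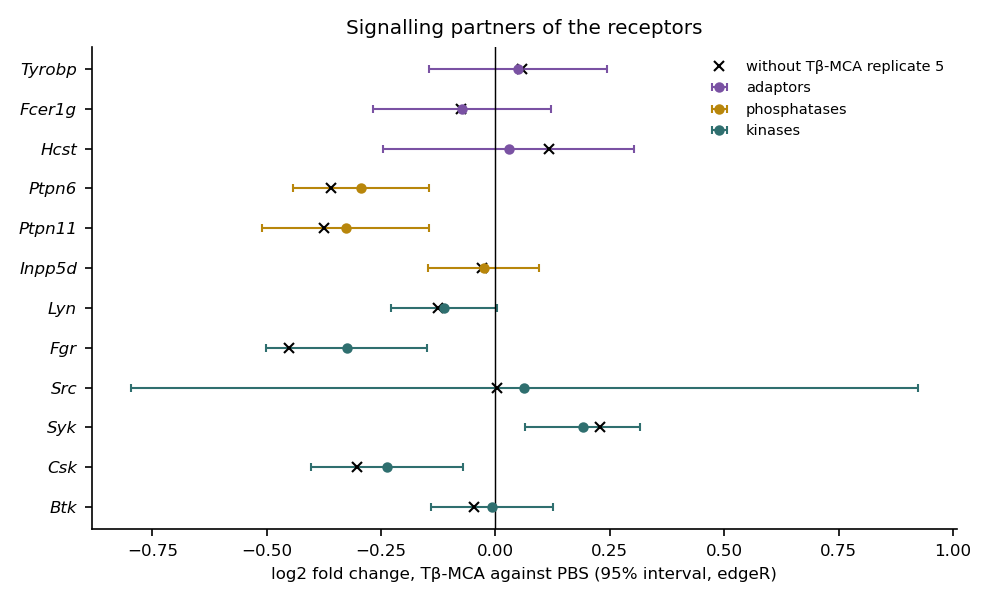
Log2 fold change with Tβ-MCA against PBS, with 95% intervals from edgeR (3 samples per group), of 3 adaptors, 3 phosphatases and 6 kinases; crosses give the value without Tβ-MCA replicate 5. Ptpn6, Ptpn11 and Fgr lie between -0.33 and -0.29, and the 3 adaptors between -0.07 and 0.05.

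Of 27 other genes of the same families 19 were tested, and 3 fell with Tβ-MCA (3.18% of all genes were called lower) while 0 rose (4.44% higher): Gm15448, Siglecf and Siglec1. Siglec1, the macrophage receptor sialoadhesin, was low, at 2.64, 3.30 and 3.61 CPM with PBS and 0.538, 0.432 and 1.90 CPM with Tβ-MCA (-1.72, adjusted p = 0.0441 by edgeR). Siglecf, an inhibitory receptor best known from eosinophils, gave 4.65, 3.74 and 3.37 CPM and 1.41, 1.62 and 3.11 CPM (-0.93, adjusted p = 0.0326). The list's median was -0.48, against 0.00 for all genes, and 9 of 19 genes did not overlap, against 27.0% of all genes.

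Of 18 other inhibitory and activating myeloid receptors tested, 7 fell and 1 rose, against 3.18% of all genes lower and 4.44% higher. The list was drawn up with earlier results of these data known, so these shares describe it and are no test of it. The paired receptors Pilra (inhibitory) and Pilrb1 and Pilrb2 (activating) fell on both sides of the pair. Pilra went from 128, 129 and 124 CPM with PBS to 62.0, 66.4 and 96.5 CPM with Tβ-MCA (-0.76, adjusted p = 0.0211 by edgeR), Pilrb1 from 68.7, 65.9 and 69.8 CPM to 49.9, 51.3 and 56.0 CPM (-0.38, adjusted p = 0.0206), and Pilrb2 from 99.5, 110 and 100 CPM to 72.4, 73.1 and 82.6 CPM (-0.44, adjusted p = 0.0206). None of these groups overlapped. The C-type lectin receptors Clec4a2 and Clec12a, both inhibitory, fell by 0.38 and 0.32 on the log2 scale, and Clec5a, which signals through DAP12, by 0.93. Treml4 fell by 0.50. The single gene that rose was Cd200r4, an activating relative of the inhibitory Cd200r1, from 16.5, 19.2 and 17.0 CPM to 35.7, 34.4 and 24.3 CPM (0.84, adjusted p = 0.0208). The values of Cd200r1 overlapped (0.07, adjusted p = 0.727). The list's median was -0.38, against 0.00 for all genes, and 12 of 18 genes did not overlap, against 27.0% of all genes. Of these, Cd200r4 and Fcgr2b were higher with Tβ-MCA and the others lower.

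The genes whose profiles over the 12 samples were most like those of the members called were sought as the smallest root mean square difference of centred log2 CPM. For Pirb they were Brpf1 (0.038), Abcd2 (0.044) and Klf9 (0.045), where the median of all genes was 0.276. For Sirpa they were Cs (0.037), which encodes citrate synthase, Ctdp1 (0.044) and Ptpn23 (0.045), with a median of 0.224.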

How the data were processed

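Counts of reads per gene and RPKM values were deposited for 12 samples. The authors trimmed reads with Trimmomatic 0.36, mapped them with STAR 2.5.3a to GRCm38 and counted them with featureCounts (Subread 1.5.1), as read from the submitters' processing notes. The authors computed RPKM from the counts, and the deposited RPKM matched values recalculated from the deposited counts and lengths to within a relative difference of 1.3e-06. Columns headed GA were taken as GCA. Counts were tested with edgeR 4.0.16 in R 4.3.3: TMM normalization, filterByExpr by group, a robust quasi-likelihood fit over all 12 samples with group as the only factor, and Benjamini-Hochberg adjustment over 16761 genes. A gene was called at an adjusted p below 0.05. CPM used TMM-scaled totals, and intervals are 95%. The procedure was tested on simulated data. DESeq2 1.42.0, other scalings, other filters, a replicate block and leaving out each sample were alternatives. No 2 samples held identical values. The members and gene lists were chosen with earlier results of these data known. All members, adaptors, phosphatases and Cd47 were named, with up to 8 called genes of each other list and the 3 nearest profiles of each member called. Lilra6, Cd33, Cd300ld4, Cd300ld5, Fcgr2b and Syk were added after their values were seen. Sequences came from GENCODE vM21 and RefSeq. Protein sequences were not used here, and some genes of the lists are not reported here.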

Additional observations from a re-analysis of the deposited data

Results flagged for a closer look

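For Sirpa and Cd300lb, all samples of 1 acid lay above the PBS mean and all samples of another below it. Of these changes only that of Sirpa with Tβ-MCA was called, and Tβ-MCA replicate 5 of Cd300lb (92.8 CPM) lay within the PBS range. For Cd300lb, the 3 TCA samples were above the PBS mean (mean log2 change 0.10) and the 3 Tβ-MCA samples below it (-0.14), a difference of 0.241. The Tβ-MCA mean minus the GCA mean (0.04) was -0.184. For Sirpa, the 3 TCA samples were below the PBS mean (-0.02) and the 3 Tβ-MCA samples above it (0.26), a difference of -0.277. These 3 differences were not tested, and the PBS samples are shared between them. The TCA mean of Sirpa minus its GCA mean (0.12) was -0.138, and the edgeR test of GCA against TCA gave an unadjusted p = 0.0421 and an adjusted p of 0.9998. The TCA changes of Sirpa, -0.04 to -0.01, were small against the spread of the PBS samples (321 to 338 CPM).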

How the results depend on the processing

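With Tβ-MCA, 2 members and 1278 genes were called. DESeq2 called 4 and 2035, no filter on low counts 4 and 2406, a model of only the 2 groups 0 and 0, and leaving out 1 sample 0 to 4 and 0 to 3076. Total library size in place of TMM called 1408 genes, 1013 higher and 395 lower against 745 and 533, and moved the median log2 fold change of all genes from 0.00 to 0.05. In the other comparisons 0 members were called under every alternative. Without a filter, 37 genes were called with TCA, 36 with GCA and 42 between GCA and TCA, and DESeq2 called 1 with TCA.

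The numbers of the labels did not meet the rule for pairing: only 2 are shared with PBS, and between GCA and TCA the lowest of 3 same-number correlations was 0.067. Over all comparisons the same-number correlations were positive, at 0.060 to 0.33. Samples of unlike number averaged -0.086 to -0.042, with a highest value of 0.15, so the numbers may carry some shared structure. With the replicate block, 3 members and 1498 genes were called with Tβ-MCA (Pirb, adjusted p = 0.0382; the Lilrb4a row, 0.0494; Sirpa, 0.0402; by edgeR), and 3 genes with TCA. The block turned log2 fold changes near 0: 0.0043 for the Lilrb4a row with TCA, 0.019 for Pira2 with GCA, and 0.0027 for Cd300ld between GCA and TCA. That last value was 0.00022 by DESeq2 and 0.0070 by total library size, and Siglece with GCA became 0.0048 by total library size.

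Leaving out 1 sample turned the sign of log2 fold changes that were not called. With Tβ-MCA, Cd300a ranged from -0.073 to 0.17 and Cd300ld from -0.0896 to 0.28. With TCA the ranges were -0.0102 to 0.043 (Pirb), -0.0056 to 0.069 (Pira2), -0.11 to 0.044 (Lilrb4a row), -0.13 to 0.12 (Cd300a), -0.014 to 0.26 (Cd300ld), -0.026 to 0.086 (Cd300lf) and -0.015 to 0.072 (Siglece). With GCA they were -0.11 to 0.043 (Pirb), -0.13 to 0.0704 (Pira2), -0.042 to 0.10 (Lilrb4a row), -0.13 to 0.11 (Cd300a), -0.012 to 0.26 (Cd300ld), -0.048 to 0.0603 (Cd300lf) and -0.087 to 0.029 (Siglece). Between GCA and TCA they were -0.12 to 0.032 (Pirb), -0.17 to 0.035 (Pira2), -0.0902 to 0.062 (Cd300a), -0.12 to 0.12 (Cd300ld) and -0.11 to 0.0058 (Siglece). The cause of these shifts was not tested. Counting error was at most 2.34% per member, so that the spread between samples, not depth, set the intervals.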
